A study of Mus musculus with 16 samples.

Results

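Signalling through ERK, the kinase at the end of the Ras pathway, was followed through 10 of its transcriptional readouts in P19 cells, a mouse embryonal carcinoma line used as a model of embryonic stem cells. The 10 genes were chosen by name: the feedback inhibitors Dusp1, Dusp6, Spry1, Spry2 and Spry4, the PEA3 factors Etv4 and Etv5, and the immediate early factors Egr1, Fos and Jun. They were measured by 11 probes (Etv4 has 2), and all 10 genes were among the 19657 genes tested. A gene here is a symbol, or a single probe where the array gives no symbol. The cells had been transfected in 4 conditions: control, let-7a (a mature miRNA), siSfpq (a small interfering RNA against Sfpq, an RNA-binding paraspeckle protein), and let-7a + siSfpq. P19 is 1 cell line, and all conditions were transient transfections of it. The study asked how loss of Sfpq alters silencing by let-7a. The conditions were read with 16 one-colour arrays, 4 per condition.

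ERK is activated by receptor tyrosine kinases such as the FGF receptors, and then induces immediate early transcription factors within minutes, without new protein synthesis. The same signal induces its own inhibitors. Dusp proteins are phosphatases, Dusp6 acting on ERK in the cytoplasm, and Sprouty proteins hold back signalling between the receptor and Raf. Etv4 and Etv5 are ETS factors whose transcripts follow FGF signalling closely in embryos and in stem cells.

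The transfected miRNA is shown first because every condition with let-7a carries it. Its seed, bases 2 to 8, is in capitals, and this mature strand lies at chr13:48538239-48538260 on the minus strand of GRCm38.p6.
let-7a: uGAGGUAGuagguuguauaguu
Promoter sequence from RefSeq (250 bases before to 50 after the start) was at hand for 7 of the 10 genes. Each of the 4 windows below holds a searched motif, in capitals, and is read 5′ to 3′ on the strand of the gene. They are shown because the immediate early genes are known for cAMP response and AP-1 elements, and the ETS core is the motif bound by Etv4 and Etv5.
Dusp1: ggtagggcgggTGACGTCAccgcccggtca
Fos: agttccgcccagTGACGTaggaagtccatc
Jun: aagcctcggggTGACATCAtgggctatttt
Etv5: tgggaattgggtGGAAGTgtgtcttgtttt
These lie at chr17:26508597-26508626 (minus strand), chr12:85473812-85473841 (plus), chr4:95052249-95052278 (minus) and chr16:22438568-22438597 (minus) of GRCm38.p6. The full cAMP response element TGACGTCA of Dusp1 occurs on either strand in 1.79% of 32851 promoters. The core TGACGT, which it contains and which Fos holds, occurs in 7.51%. The form TGACATCA of Jun occurs in 3.62% and the ETS core GGAAGT of Etv5 in 23.8%. GGAAGT also lies close to TGACGT in the Fos window. The AP-1 element TGANTCA (7.81% of promoters) and the CArG box (1.63%) had no match in the windows of the 7 genes. None of the searched motifs was in those of Dusp6, Spry1 and Spry2. Sites further than 250 bases before the start were not searched, and Spry4, Etv4 and Egr1 had no promoter sequence to search. A missing match therefore does not show that a gene lacks the element.

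Between 33733 and 38464 of 59305 spots per array were well above background, and none was saturated. All 11 probes of the 10 genes were well above background on all 16 arrays. Arrays 1 and 2 of a condition differed by a median of 0.0576 to 0.0726 on the log2 scale, which is about the spread between repeated spots of 1 probe within an array (SD 0.0577 to 0.0676), so they were averaged and counted as 1 sample. Other pairs of arrays of a condition differed by 0.117 to 0.369. Each condition therefore had 3 samples, called replicates 1-2, 3 and 4, and values below are given in that order as normalized log2 intensity. Replicates 1-2 were on slide 1, and replicates 3 and 4 on slide 2. Replicate 3 stood apart in every condition, so results are also given without it. The study's methods speak of 3 transfected replicates per condition, but neither they nor the labels say that these were separate cultures, so p-values measure only the spread between these samples. Changes were tested with limma, adjusted over all 19657 genes, and a gene is called at an adjusted p under 0.05. An exact permutation test of 3 against 3 samples cannot go below p = 0.1.

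Sfpq itself was at 12.07, 11.98 and 11.99 in control and at 10.56, 11.47 and 10.61 in siSfpq. Replicate 3 was the weakest of the 3 knockdowns. The change was −1.13 ± 0.19 (SE) with limma adjusted p = 0.00827. With let-7a present, siSfpq moved it by −0.57, which did not pass the test (limma adjusted p = 0.156). Its levels with both molecules were 11.31, 11.50 and 11.405, so the mean fall was smaller than in siSfpq alone. That difference of 0.53 did not pass either (limma adjusted p = 0.105). Its part in the comparisons with let-7a + siSfpq and in the interaction was not tested.

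Spry1, Spry4 and Etv4 rose in siSfpq against control, so that 3 of the 10 genes were called. Over all genes tested 12.5% were called and 5.75% were called higher. The 3 siSfpq samples lay wholly above or below the 3 control samples for 7 of the 10 genes, against 28.9% of all genes. The median change of the 10 was 0.39, and that of all genes was 0.01. In let-7a against control 1 gene of the 10 was called, Egr1, which rose, where 6.3% of all genes were called. In this comparison 4 of the 10 did not overlap between conditions, against 29% of all genes, and the medians were −0.14 for the 10 and −0.04 for all genes. These 2 comparisons share the control samples. In RNA from whole cultures, fewer cells of a type and less RNA per cell cannot be told apart.

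**Figure D1:**
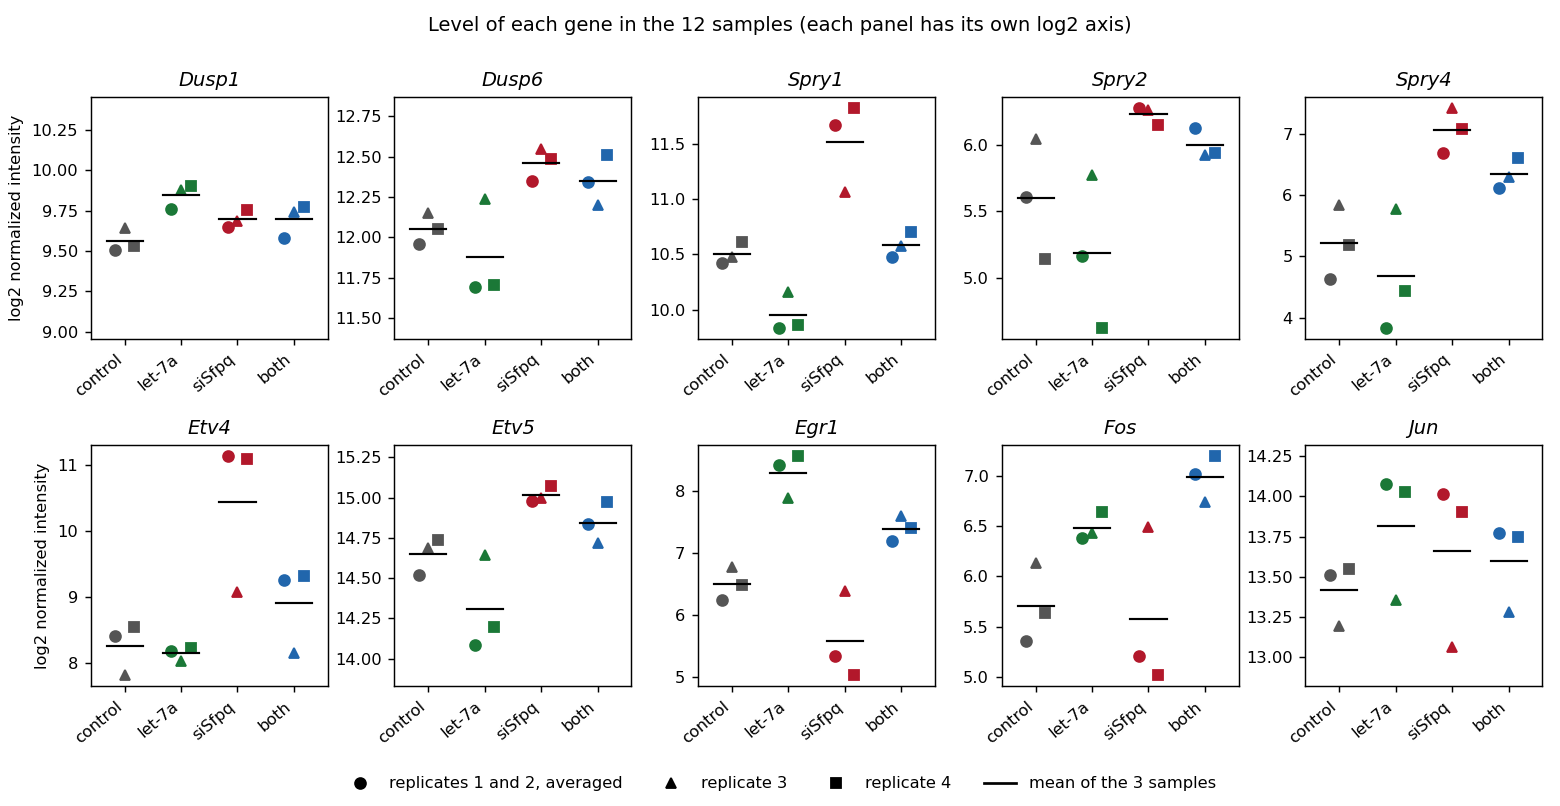
Normalized log2 intensity of each of the 10 genes (vertical axis, separate scale per panel) in control, let-7a, siSfpq and let-7a + siSfpq, marked both. Points are the 3 samples of a condition, shaped by replicate, and bars are their means. Spry1, Spry4 and Etv4 were highest in siSfpq, where the means were 11.5, 7.06 and 10.4, and Egr1 was highest in let-7a, at a mean of 8.30.

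Calls depended on the treatment of replicates. Samples with the same replicate number moved together in all 4 conditions, so the replicate number was also used as a block. With it, 7 of the 10 genes were called in siSfpq against control (36.8% of all genes) and 4 in let-7a against control (20.9%). Without replicate 3, 8 were called in siSfpq (47.1% of all genes) and 8 in let-7a (28.1%). The added calls therefore came with a larger background of calls. In the other direction, none of the 10 was called in siSfpq against control without replicates 1-2 or without replicate 4 of all conditions, but then 0 of the 19657 genes were. The changes were then 0.90 and 0.92 for Spry1, 1.74 and 1.81 for Spry4, and 1.91 and 2.01 for Etv4, close to those with all samples. The call of Egr1 in let-7a against control was lost in the same 2 cases (changes of 1.61 and 1.66, limma adjusted p = 0.334 and 0.283), where 3 and 2 of all genes were called. With only control and siSfpq in the fit, the calls of Spry1, Spry4 and Etv4 were lost (limma adjusted p = 0.0646, 0.0642 and 0.0833), and no gene of all those tested was called.

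Spry1 encodes a Sprouty inhibitor of receptor signalling to Ras, and its probe lies at chr3:37543403-37543462 on the plus strand of mm9. Its levels were 10.42, 10.47 and 10.61 in control and 11.67, 11.06 and 11.83 in siSfpq. All siSfpq samples lay above all control samples, with replicate 3 the lowest of them. Spry1 rose by 1.02 ± 0.18 (SE), a 2.02-fold change, with limma adjusted p = 0.00895. Within slide 1 the difference was 1.25 and within slide 2 it was 0.903. Without replicate 3 it was 1.23 (limma adjusted p = 8.55e-05), and leaving out siSfpq replicates 1-2 raised the adjusted p to 0.0519.
In let-7a the levels of Spry1 were 9.83, 10.16 and 9.86, all below control. The change was −0.55 ± 0.18 and missed the threshold (limma adjusted p = 0.0969), passing with the replicate block (0.0422) and without replicate 3 (−0.67, 0.00294).

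Spry4, another Sprouty inhibitor, was measured by a dim probe, at 4.64, 5.83 and 5.18 in control and 6.68, 7.41 and 7.08 in siSfpq. The conditions did not overlap, and replicate 3 was the highest sample of each. Spry4 rose by 1.84 ± 0.45 (SE), or 3.57-fold, with limma adjusted p = 0.0254. With normexp background correction the change was 1.03, or 2.04-fold (limma adjusted p = 0.0124). The difference was 2.04 within slide 1 and 1.74 within slide 2. The call was lost when control replicates 1-2 or 4, or siSfpq replicates 1-2 or 4, were left out (limma adjusted p = 0.101, 0.086, 0.0718 and 0.0995), and when dim probes were kept (0.0592). In let-7a the levels were 3.84, 5.77 and 4.44, overlapping control, with a change of −0.54 (limma adjusted p = 0.588). That change was −0.16 with normexp and −0.21 in the deposited values, and ranged from −1.08 to −0.11 when samples were left out.

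Spry2, which belongs to the same family, stood at 5.61, 6.04 and 5.14 in control and 6.28, 6.26 and 6.15 in siSfpq. The siSfpq samples lay above control, but the difference of 0.63 ± 0.29 (SE) did not pass (limma adjusted p = 0.169; 0.044 with the replicate block; 0.84 and 0.0241 without replicate 3). It was 0.31 with normexp and 0.41 in the deposited values. In let-7a it was 5.16, 5.77 and 4.62, overlapping control (−0.41, limma adjusted p = 0.506). That change was −0.17 with normexp and −0.26 in the deposited values, and ranged from −0.71 to −0.13 when samples were left out.

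Dusp6, the phosphatase most specific for ERK among the 10, stood at 11.96, 12.15 and 12.05 in control and at 12.35, 12.55 and 12.49 in siSfpq. The siSfpq samples were all higher, by a mean of 0.41 ± 0.15 (SE), which missed the threshold (limma adjusted p = 0.0859; 0.0323 with the replicate block). The difference was the same in size without replicate 3, 0.41 (limma adjusted p = 0.00408). In let-7a the levels were 11.69, 12.24 and 11.70, so replicates 1-2 and 4 lay below control and replicate 3 above it. That change was −0.18 (limma adjusted p = 0.582) and, without replicate 3, −0.31 (0.0256).

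Dusp1, a nuclear phosphatase that acts on several MAP kinases and is itself an immediate early gene, was 9.51, 9.64 and 9.53 in control, 9.76, 9.88 and 9.90 in let-7a, and 9.65, 9.69 and 9.76 in siSfpq. Both treatments lay above control without overlap, but neither change passed: 0.29 ± 0.10 (SE) in let-7a (limma adjusted p = 0.128; 0.0196 with the replicate block) and 0.14 ± 0.10 in siSfpq (0.409). The study used Dusp1 as a control, a let-7a target whose let-7a site did not depend on Sfpq, from Ago2 RNA-IP and RT-qPCR. On these arrays its estimate in let-7a was a rise.

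Etv4 had the largest change of the 10 genes in siSfpq against control. Its 2 probes lie at chr11:101631322-101631381 and chr11:101631057-101631116 on the minus strand of mm9. Its levels, the mean of these probes, were 8.40, 7.81 and 8.55 in control and 11.15, 9.07 and 11.10 in siSfpq. All siSfpq samples exceeded all controls, and replicate 3 again was the lowest of each condition. Etv4 rose by 2.19 ± 0.49 (SE), or 4.55-fold, with limma adjusted p = 0.0196, and its 2 probes moved by 2.21 and 2.17. The difference was 2.75 within slide 1 and 1.91 within slide 2, and 2.65 without replicate 3 (limma adjusted p = 3.47e-06). Leaving out any 1 of the control samples, or siSfpq replicates 1-2 or 4, put the limma adjusted p between 0.0578 and 0.0991, and keeping dim probes put it at 0.0503. In let-7a the levels were 8.17, 8.03 and 8.22, within the range of control, and the change of −0.11 did not pass (limma adjusted p = 0.948), with its sign turned when the brighter probe alone was used (0.05). It was −0.23, 0.225 and −0.32 in the 3 replicates, and −0.28 without replicate 3 (limma adjusted p = 0.0339).

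Etv5, the related factor, was brightly measured: 14.52, 14.69 and 14.74 in control and 14.98, 15.00 and 15.07 in siSfpq. The siSfpq samples were higher without overlap, by 0.37 ± 0.13 (SE), which did not pass (limma adjusted p = 0.0858; 0.0332 with the replicate block). In let-7a it stood at 14.08, 14.64 and 14.20, with replicate 3 inside the control range. The change was −0.34 (limma adjusted p = 0.166) and, without replicate 3, −0.49 (0.00801).

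**Figure D2:**
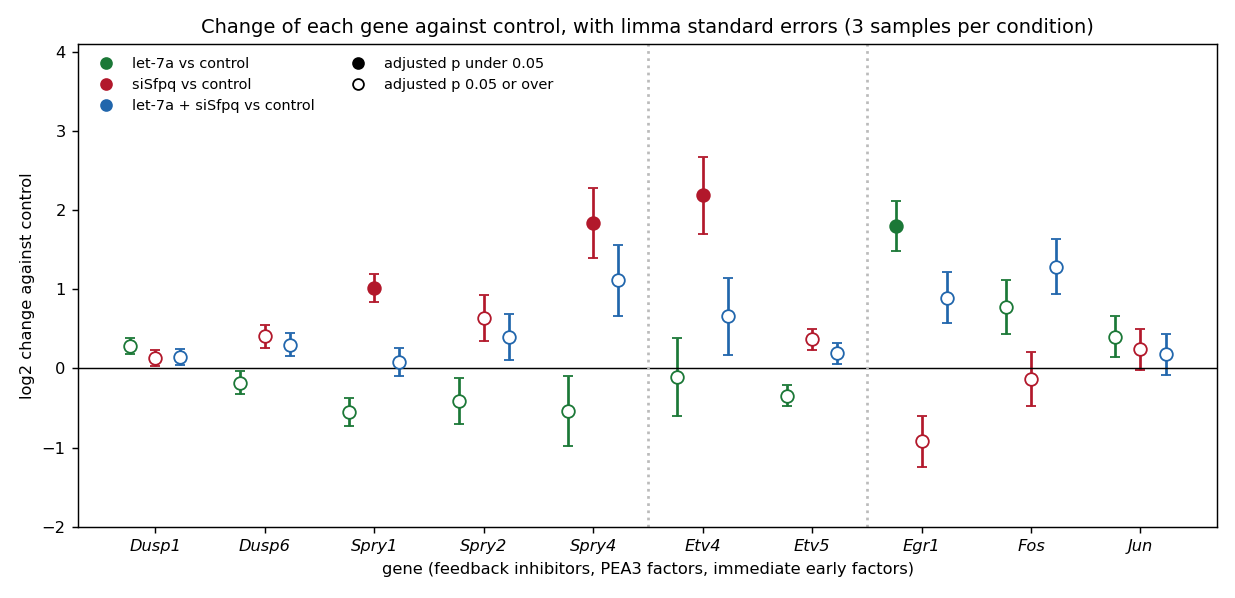
Log2 change against control (vertical axis) of each of the 10 genes in let-7a, siSfpq and let-7a + siSfpq. Points are limma estimates from 3 samples per condition, bars are standard errors, and filled points have an adjusted p under 0.05, namely Spry1 (1.02), Spry4 (1.84) and Etv4 (2.19) in siSfpq and Egr1 (1.80) in let-7a.

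Egr1, a zinc finger factor and a standard readout of ERK activity, was 6.24, 6.77 and 6.49 in control and 8.42, 7.90 and 8.58 in let-7a. Every let-7a sample was above every control sample. Egr1 rose by 1.80 ± 0.32 (SE), or 3.48-fold, with limma adjusted p = 0.00735. With normexp this was 1.26, or 2.4-fold (limma adjusted p = 0.00182), and in the deposited values it was 1.52. The difference was 2.18 within slide 1, 1.61 within slide 2 and 2.14 without replicate 3 (limma adjusted p = 0.000159). In siSfpq its levels were 5.33, 6.39 and 5.02, so that replicate 3 lay inside the control range and the other samples below it. That change of −0.92 ± 0.32 (SE) did not pass (limma adjusted p = 0.0795), but passed with the replicate block (0.0359) and without replicate 3 (−1.19, 0.000822). It was −0.41 with normexp and −0.60 in the deposited values.

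Fos, the AP-1 partner of Jun, was measured by a probe at chr12:86817900-86817959 on the plus strand of mm9. It was 5.35, 6.13 and 5.64 in control and 6.38, 6.43 and 6.64 in let-7a. The samples did not overlap, and the difference of 0.78 ± 0.34 (SE) did not pass (limma adjusted p = 0.236; 1.02 and 0.00505 without replicate 3). With normexp it was 0.40. In siSfpq it was 5.21, 6.49 and 5.01, with replicate 3 above every control and the other samples below every control. The mean change was −0.13 (limma adjusted p = 0.844), and its sign turned in some settings that left out a sample.

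Jun was 13.51, 13.19 and 13.55 in control, 14.07, 13.36 and 14.02 in let-7a, and 14.02, 13.07 and 13.90 in siSfpq. Replicate 3 was the lowest sample in each condition, and all conditions overlapped. The changes were 0.40 in let-7a (limma adjusted p = 0.457; 0.0217 with the replicate block) and 0.24 in siSfpq (0.588). Without replicate 3 they were 0.52 and 0.43 (limma adjusted p = 0.000934 and 0.000948).

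**Figure D3:**
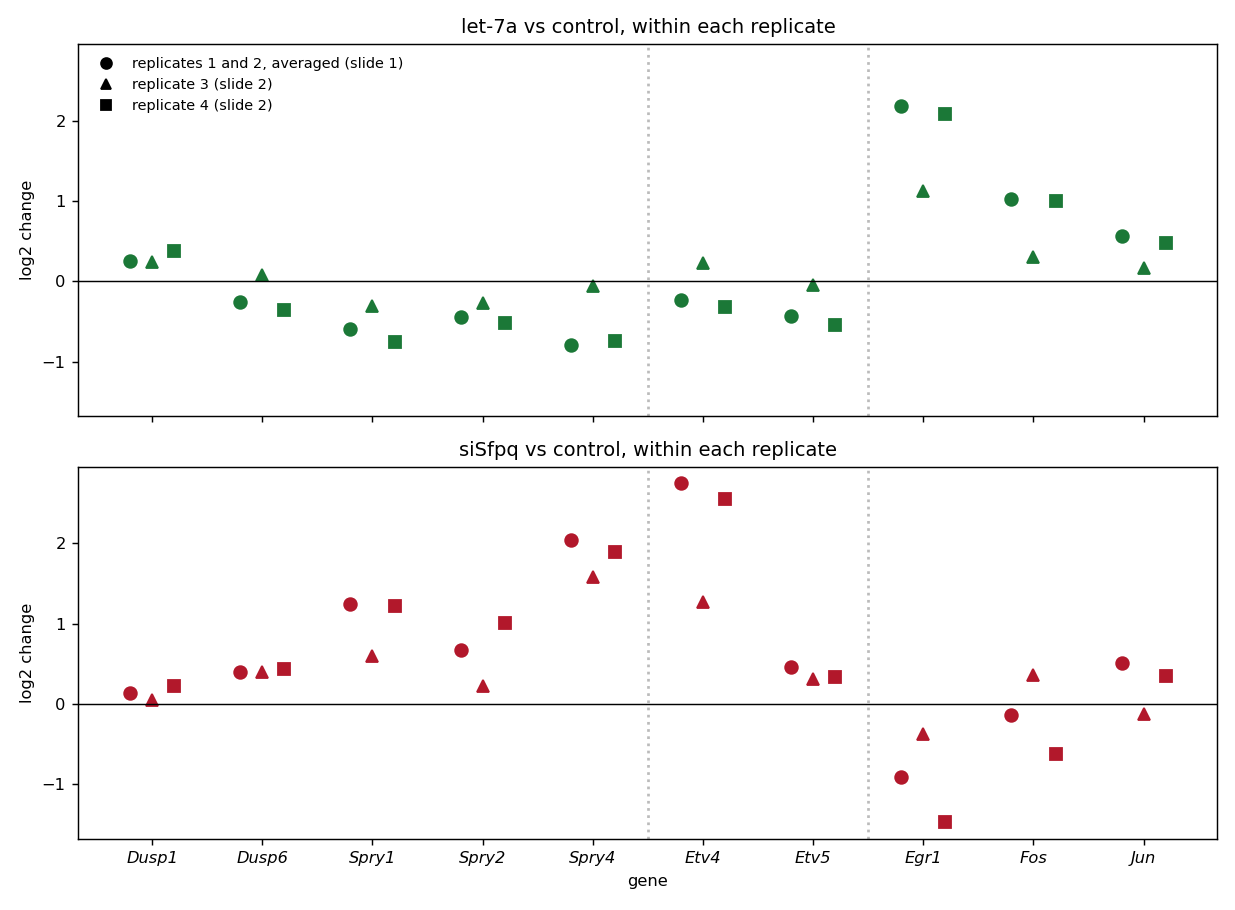
Log2 change of each of the 10 genes within each replicate (points, vertical axis) for let-7a against control and siSfpq against control. The changes of Etv4 in siSfpq were 2.75, 1.27 and 2.55, and those of Egr1 in let-7a were 2.18, 1.13 and 2.09, with replicate 3 the smallest.

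The condition with both molecules was set against control, against let-7a and against siSfpq, comparisons that share samples with those above. Against control none of the 10 was called (1.33% of all genes called). Of the 10, 3 had an unadjusted p under 0.05, as had 2193 of all genes, and 4 did not overlap, against 19.4% of all genes. All 10 estimates were above 0, from 0.08 for Spry1 to 1.28 for Fos. Fos stood at 7.02, 6.75 and 7.21 with both molecules, above every control sample, and its difference of 1.28 ± 0.34 (SE) did not pass (limma adjusted p = 0.116), and was 0.72 with normexp. With the replicate block 2 were called, Spry4 and Fos (limma adjusted p = 0.0427 and 0.0353), where 7.48% of all genes were. Without replicate 3, 6 were called (16.7% of all genes).

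Against let-7a alone, adding siSfpq gave no call (2.77% of all genes called). Of the 10, 6 had an unadjusted p under 0.05, as had 3085 of all genes, and 6 did not overlap, against 22.3% of all genes. Spry4 was 6.11, 6.29 and 6.601 with both, above every let-7a sample, a difference of 1.65 ± 0.45 (SE; limma adjusted p = 0.0756), which was 0.72 with normexp and 0.95 in the deposited values (limma adjusted p = 0.0627 and 0.0818). Etv5 was 14.84, 14.72 and 14.97 with both, also above every let-7a sample, by 0.53 ± 0.13 (SE; limma adjusted p = 0.0569). With the replicate block 5 were called, all higher: Dusp6, Spry1, Spry2, Spry4 and Etv5 (12.3% of all genes; limma adjusted p from 0.00719 to 0.0389). Without replicate 3, 9 were called (24.9%). Changes of siSfpq without and with let-7a stood at 1.02 and 0.63 for Spry1, 1.84 and 1.65 for Spry4, and 2.19 and 0.77 for Etv4. Sfpq itself moved by −1.13 and −0.57.

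Against siSfpq alone, adding let-7a gave 3 calls, where 9.18% of all genes were called. Egr1 and Fos rose and Spry1 fell, and 6 of the 10 did not overlap, against 24.5% of all genes. Egr1 was 7.19, 7.60 and 7.40 with both molecules, above every siSfpq sample, and rose by 1.82 ± 0.32 (SE), or 3.52-fold (limma adjusted p = 0.00991). With normexp this was 0.98, or 1.97-fold (limma adjusted p = 0.0132). Fos rose by 1.42 ± 0.34 (SE), or 2.68-fold (limma adjusted p = 0.031), with the smallest difference, 0.254, in replicate 3. With normexp it was 0.74, or 1.67-fold (limma adjusted p = 0.027). Spry1 was 10.48, 10.58 and 10.703 with both, below every siSfpq sample and near control. It fell by 0.93 on the log2 scale (SE 0.18, limma adjusted p = 0.0133). Sfpq itself was on average less reduced with both than in siSfpq alone, and its part in these differences was not tested.
Etv4 was 9.25, 8.15 and 9.32 with both. Only replicate 3 of siSfpq, at 9.07, lay within that range, and the difference of −1.53 ± 0.49 (SE) missed the threshold (limma adjusted p = 0.0718). It passed with the replicate block (limma adjusted p = 0.00781), under which 4 of the 10 were called (32.4% of all genes), and without replicate 3 there were 5 (45.2%). Each of the 3 calls was lost when siSfpq replicates 1-2 were left out (limma adjusted p = 0.0671 for Spry1, 0.0511 for Egr1 and 0.133 for Fos). Those of Spry1 and Fos were also lost without let-7a + siSfpq replicates 1-2 (0.0602 and 0.0928) or siSfpq replicate 4 (0.0668 and 0.142), and that of Fos without let-7a + siSfpq replicate 4 (0.116) or control replicate 4 (0.0501), or with dim probes kept (0.0653). With only siSfpq and let-7a + siSfpq in the fit, none of the 3 was called (limma adjusted p = 0.0927 for Spry1, 0.0764 for Egr1 and 0.139 for Fos), where 0.997% of all genes were. Over all genes 1089 were called higher and 716 lower, a split that became 1111 and 1112 when arrays were scaled to their 75th percentile.

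The interaction, which is the change by siSfpq with let-7a less that without it, was called for none of the 10 genes or of all genes (0%). At an unadjusted p under 0.05 there were 0 of the 10 and 1178 of all genes. Among the 10, its largest value was that of Etv4, at −1.42 ± 0.69 (SE; limma adjusted p = 0.851), with −1.66, −1.15 and −1.45 in the 3 replicates. Without replicate 3 it was called for 3 of the 10 (20.7% of all genes): −1.56 for Etv4, −0.72 for Jun and 0.99 for Fos (limma adjusted p = 0.000437, 0.00196 and 0.0296).

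Across the 12 samples the inhibitors and PEA3 factors other than Dusp1 varied together, whereas Egr1 varied inversely to them. Pearson's r was 0.96 between Dusp6 and Spry4, 0.96 between Dusp6 and Etv5, and 0.89 between Spry1 and Etv4. It was −0.91 between Spry1 and Egr1, −0.75 between Etv4 and Egr1, and 0.76 between Egr1 and Fos. These values are descriptions over 12 samples that share conditions, replicate numbers and slides. Outside the 10, the gene most like Egr1 over the 12 samples was Trpc4 (r = 0.993), that most like Spry1 was Nfatc2ip (0.995), and that most like Etv4 was Krtap5-2 (0.990). Spry4 was closest to Epcam (0.979) and Fos to Slc16a11 (0.971). Such likeness was common, since r was over 0.9 for 593 genes with Egr1, 816 with Spry1 and 615 with Etv4, but for 64 with Spry4 and 30 with Fos.

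**Figure D4:**
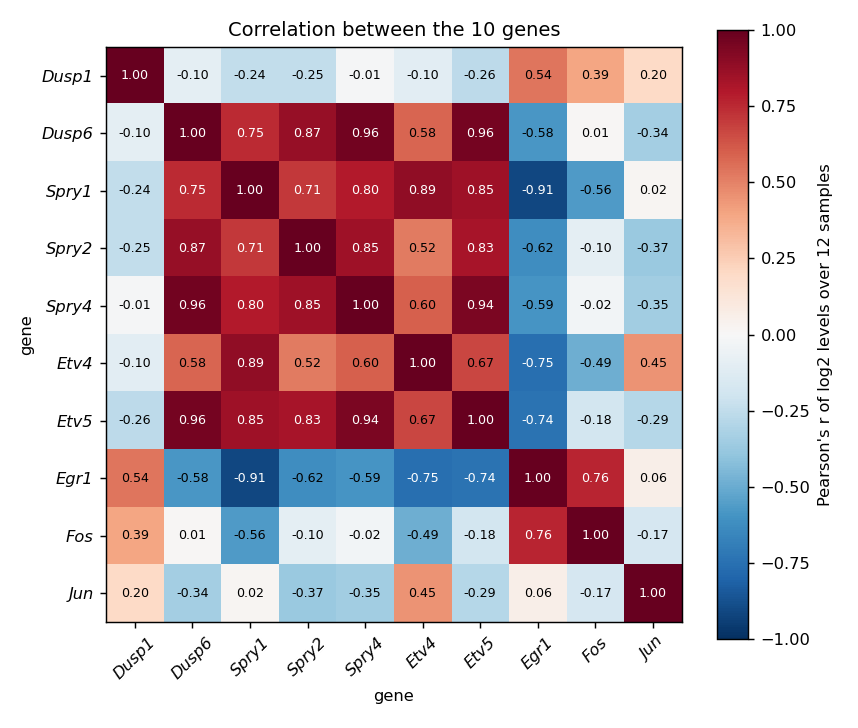
Pearson's r of log2 levels between each pair of the 10 genes over 12 samples, printed in each cell and coloured from −1 (blue) to 1 (red). Dusp6, Spry1, Spry2, Spry4, Etv4 and Etv5 form a red block, and Egr1 is blue against all 6 of them.

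Upstream and around the 10 genes, 83 of 92 listed FGF and ERK pathway genes were tested. In siSfpq against control 9 were called higher and 6 lower, where 12.5% of all genes were called, and their median change was 0.12 against 0.01 for all genes. In let-7a against control 5 were called higher, Fgf1 among them, and 6 lower, where 6.3% of all genes were called. The medians were −0.07 for the listed genes and −0.04 for all genes. Among ligands, Fgf8, which acts in early embryos, rose by 1.28 in siSfpq (limma adjusted p = 0.00747) and fell by 1.53 on the log2 scale in let-7a (0.00214). Fgf4, the autocrine FGF of pluripotent cells, rose by 1.11 in siSfpq (limma adjusted p = 0.0129) and is named here after its values were seen. It is also on the list of embryonal carcinoma markers. Fgf1, a broadly acting ligand, rose by 2.15 in let-7a (limma adjusted p = 0.000751), against a dim control level of 4.70 that was well above background on 3 of 4 control arrays. It was so on all 4 let-7a arrays and passed the filter only through conditions with let-7a, where it was high. Its call and the size of its change are therefore uncertain.
Of 12 receptors and adaptors, the adaptor Shc1 rose by 0.48 in let-7a (limma adjusted p = 0.0397) and the adaptor Grb2 fell by 0.61 in siSfpq (0.043). None of the 16 tested genes of Ras, Raf, MEK and ERK was called in either comparison. Of 17 other feedback genes, 3 were called in siSfpq, all higher, led by the ERK phosphatase Dusp4 at 2.52 (limma adjusted p = 0.0199). In let-7a 3 were called, all lower, led by the phosphatase Dusp9 at −0.96 (limma adjusted p = 0.0166). The medians of these 17 were 0.29 and −0.15.

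Of 13 other ERK output genes, 1 rose and 2 fell in each comparison. In siSfpq Etv1, the remaining PEA3 factor, rose by 0.47 (limma adjusted p = 0.0191), and Mycn fell by 1.65 and Epha4 by 0.66 on the log2 scale (0.0391 and 0.0145). In let-7a Phlda1 rose by 1.09 (limma adjusted p = 0.0221), and Myc, a growth regulator, fell by 0.92 and the ephrin receptor Epha2 by 0.85 (0.0124 and 0.0398). Epha4, also an ephrin receptor, and Epha2 are named after their values were seen. Of 18 other immediate early genes tested, 2 rose in let-7a, led by the antiproliferative gene Btg2 at 1.38 (limma adjusted p = 0.00949), with a median of 0.25. In siSfpq 3 rose and 3 fell, led by the stress-induced factor Atf3 at 1.54 and the nuclear receptor Nr4a2 at −1.38 (limma adjusted p = 0.0104 and 0.0233).

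**Figure D5:**
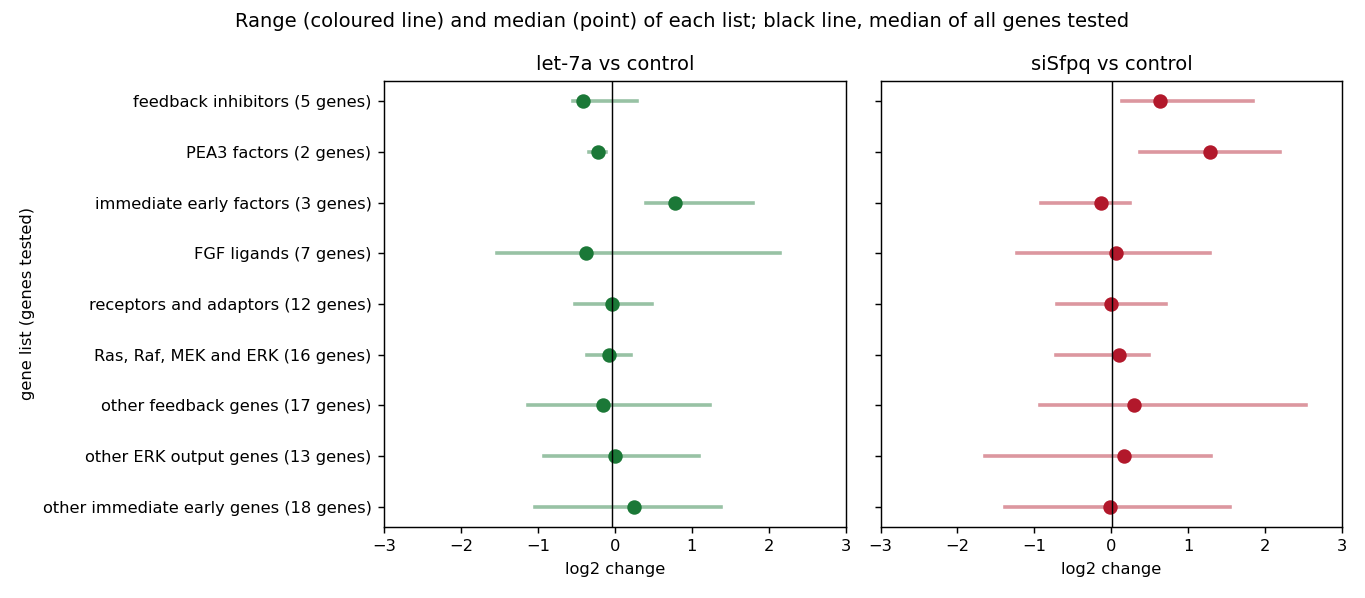
Log2 change (horizontal axis) of the listed groups in let-7a against control and siSfpq against control. Coloured lines span the lowest to the highest gene, points are medians, and the black line is the median of all genes tested. The 5 feedback inhibitors have medians of −0.41 in let-7a and 0.63 in siSfpq, both the value of the dim Spry2, which become −0.17 and 0.41 with normexp.

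Markers of cell state moved with the same comparisons. The P19 label was borne out by Pou5f1, Nanog, Sox2, Lin28a and Utf1, each with a probe well above background on all 16 arrays, while Zfp42 was so on at most 1. The 9 tested embryonal carcinoma markers summed to 69300 to 79000 (linear intensity) in control, 47100 to 63100 in let-7a, 79800 to 90700 in siSfpq and 62500 to 68300 with both. In let-7a 3 of them fell, led by Lin28a, an RNA-binding let-7 antagonist, at −0.77 (limma adjusted p = 0.00278). In siSfpq 3 rose, led by Dppa4 at 1.83 (limma adjusted p = 0.0421), and Sox2 fell by 0.72 (0.0296).
Of 10 neuronal markers, 7 were called higher in let-7a, Neurod1 among them, and 5 fell in siSfpq. The neurogenic factor Neurod1 had the highest estimate in let-7a, 2.75 (limma adjusted p = 0.00104), against a dim control level of 3.88, well above background on 3 of 4 control arrays. Like Fgf1 it passed the filter only through conditions with let-7a, where it was high, so its call and the size of its change are uncertain. In siSfpq it was well above background on 0 of 4 arrays, so it is left out of the 5 although its limma adjusted p was 0.0144, and no fall can be read for it. Of the 5, Tubb3, a neuronal tubulin named after its values were seen, fell by 1.44 on the log2 scale (limma adjusted p = 0.00614). Their sums were 40100 to 47000 in control, 51700 to 69200 in let-7a, 22400 to 31000 in siSfpq and 33700 to 36800 with both, highest in let-7a and lowest in siSfpq. Of 6 tested mesendoderm markers, 1 was called in siSfpq, where all 6 estimates were above 0. It was T, the factor of the primitive streak, which rose by 1.91 (limma adjusted p = 0.0115). In let-7a 2 were called, both lower, T at −2.29 and the organizer factor Gsc at −1.44 (limma adjusted p = 0.00399 and 0.00134), the latter named after its values were seen. The other 4 did not pass in let-7a, with estimates from −0.32 for Eomes to 1.27 for Gata6. T made up 56.5% to 61.4% of the summed level in control and 71.2% to 84.6% in siSfpq, but 23.2% to 34.7% in let-7a and 40.4% to 53% with both. These sums were 1620 to 2170 in control, 748 to 946 in let-7a, 3670 to 7130 in siSfpq and 1120 to 2300 with both. The endoderm factor Sox17 was above background on 0 arrays. The part of these cell state markers in the results for the 10 genes was not tested.

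Of 11 tested stress response genes, 10 were higher in siSfpq, with a median of 0.80, but only Trib3, a stress-induced pseudokinase, rose (1.63; limma adjusted p = 0.0448), and Dnajb1, a co-chaperone, fell by 0.68 (0.0214). Their sums were 83600 to 88000 in control, 70400 to 95700 in let-7a, 99300 to 130000 in siSfpq and 84400 to 102000 with both. Of 4 tested fibroblast and muscle markers, Col1a2 rose by 0.71 in let-7a (limma adjusted p = 0.0405) and none was called in siSfpq. These sums were 1360 to 1810 in control, 2020 to 2260 in let-7a, 1240 to 1610 in siSfpq and 1650 to 1810 with both. Myod1 was not tested. Their part in the results was not tested either.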

How the data were processed

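RNA of P19 cells was labelled with Cy3 and hybridised to 16 Agilent arrays. The deposited scanner files hold, per the file headers, processed signal intensity from Agilent Feature Extraction, and a series table deposited by the authors holds log2 normalized values, made with limma according to the submitters' processing notes, used here only as an alternative. Its values followed the log2 median signal in rank.

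Processed signals were put on the log2 scale and quantile normalized together in R 4.3.3 (limma 3.58.1). Outlier spots were left out, spots were averaged per probe and probes per gene. Of 55681 probes, 16194 whose only name is a region of the genome were not used, and 25856 of the others passed the filter on dim probes, which required at least 1 condition with the probe well above background on each of its 4 arrays. Arrays 1 and 2 of a condition were averaged. One limma model (eBayes with trend) over 12 samples gave 5 comparisons and their interaction, two-sided, with Benjamini-Hochberg adjustment over 19657 genes. The code was tested on simulated data. The number of arrays limits the precision.

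Same-numbered samples deviated together from their condition means (r from 0.293 to 0.713 over all 18 pairs), so replicate numbers were taken to pair the samples, a pairing seen in the data and not stated by the labels. Alternatives were 75th-percentile scaling, normexp background correction with an offset of 50, the deposited values, no filter on dim probes, the brightest probe, slide or replicate as a block, separate arrays, only the conditions compared, and leaving out samples. The 10 genes and all lists were chosen with earlier results of these data known. Besides the 10 genes, the genes with the largest rise and fall among the called genes of each list were named, and for each called gene of the 10 the gene most correlated with it. Sequences are from RefSeq.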

Additional observations from a re-analysis of the deposited data

Results flagged for a closer look

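The effect of siSfpq on Dusp1 had opposite signs without and with let-7a. Against control it was 0.14 (limma adjusted p = 0.409), higher in 3 of 3 replicates, and against let-7a it was −0.15 (limma adjusted p = 0.571), lower in 3 of 3 replicates. The difference between these effects was −0.28 (limma adjusted p = 0.853) and did not pass the test.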

How the results depend on the processing

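Over the alternatives that kept all samples, 605 of the values for single genes and comparisons kept their direction and their side of the threshold, 39 passed it newly, 9 no longer passed it and 9 changed sign. The cause was not tested. With the replicate number as a block, the count of the 10 genes called went from 1 to 4 in let-7a against control, from 3 to 7 in siSfpq against control, from 0 to 2 in let-7a + siSfpq against control and from 0 to 5 against let-7a. With arrays 1 and 2 as separate samples these counts were 5, 7, 2 and 6. Over all genes 18.7%, 34.6%, 7.16% and 13.3% were then called. That setting counts arrays which differ about as little as repeated spots as independent samples. With only the conditions compared in the fit they were 2 in let-7a against control (8.15% of all genes called), 0 in siSfpq against control and 0 in let-7a + siSfpq against siSfpq. In siSfpq against control 75th-percentile scaling gave 5 (14% of all genes called) and no filter on dim probes 1 (4.42%). Against let-7a, normexp gave 1 (3.81%), the deposited values 1 (3.37%) and the slide block 2 (3.34%). Normexp made the changes of the dim genes Spry2, Spry4, Egr1 and Fos smaller, by over 1.5 times in several comparisons.

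Leaving out samples gave 0 to 8 called in let-7a, 0 to 8 in siSfpq, 0 to 6 in let-7a + siSfpq against control, 0 to 9 against let-7a, 0 to 5 against siSfpq and 0 to 3 for the interaction.

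Over all genes, calls in let-7a, siSfpq, let-7a + siSfpq against control, against let-7a, against siSfpq and the interaction were 1239, 2454, 261, 544, 1805 and 0. With the replicate block they were 4106, 7229, 1470, 2409, 6368 and 4, and with separate arrays 3668, 6803, 1407, 2609, 6098 and 156. Without the filter, 1331, 164, 264, 856 and 4 were called in the last 5 of these. With only the conditions compared, siSfpq gave 0 and let-7a + siSfpq against siSfpq 196. Leaving out samples gave 2 to 5514, 0 to 9256, 0 to 3289, 0 to 4891, 0 to 8891 and 0 to 4064.

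Sign changes were of small values. Etv4 in let-7a was 0.05489 with the brightest probe and 0.05489 with that probe alone. Dusp1 in let-7a + siSfpq against siSfpq was −0.004776 with 75th-percentile scaling, −0.005846 with normexp and −0.01275 with separate arrays. The interaction of Dusp6 was −0.03996 with 75th-percentile scaling. That of Egr1 was −0.2839 with normexp, −0.2057 with the deposited values and −0.06772 with separate arrays. Leaving out samples, the range was −0.3322 to 0.03803 for Etv4 in let-7a and −0.5953 to 0.1446 for Fos in siSfpq. In let-7a + siSfpq against siSfpq it was −0.03309 to 0.06365 for Dusp1, −0.1898 to 0.008172 for Dusp6 and −0.3597 to 0.1148 for Jun. For the interaction it was −0.08711 to 0.3157 for Dusp6, −0.1045 to 0.4709 for Spry2, −0.6082 to 0.3598 for Spry4 and −0.2633 to 0.422 for Egr1.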
